A study of Arabidopsis thaliana with 18 samples.

Results

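Transcript levels were measured in whole seedlings of the Arabidopsis thaliana line nlp2-2, in which a T-DNA insertion disrupts NLP2 (AT4G35270; labelled a knock-out), before and after nitrate was returned to nitrogen-starved plants. The response described here compares 6 of the series' 18 libraries, 3 of starved nlp2 seedlings and 3 of nlp2 seedlings after nitrate. They were chosen by their sample titles, with every gene model used. The spread used in the tests was estimated from all 18 libraries. Starved seedlings had been grown in liquid medium for 10 days and then kept for 3 days without nitrogen, so they were 13 days old. The nitrate group had the same age and starvation and then received 3 mM nitrate for a time labelled 30, with no unit stated. Replicates 1, 2 and 3 of both groups were planted on different dates (in February, October and November), and each number stands for the same planting date in both groups. Untreated nlp2 seedlings, 3 libraries of plants labelled 10 days old that were never starved, give a further level. By that label they differ from the other groups in age as well as in treatment. Their labels also give the same planting dates and harvest day as the other nlp2 groups, which contradicts a different age. Whether they differed in age is therefore uncertain. Wild type Col-4 seedlings under the same 2 conditions, also 3 libraries each, serve as the reference for the mutant. The mutant is a single insertion line, and no group was left starved until the later time, so nitrate, handling and elapsed time cannot be told apart.

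Plants take up nitrate through NRT1 and NRT2 transporters, reduce it to nitrite with nitrate reductase in the cytosol and to ammonium with nitrite reductase in plastids, and build the ammonium into glutamine and glutamate. Nitrate is also a signal: within a short time it changes the transcripts of the genes that transport and reduce it, of those that supply electrons and carbon skeletons, and of many regulators, which is called the primary nitrate response. NIN-like proteins (NLPs) are RWP-RK transcription factors that bind DNA and switch on much of this response. NLP7 is the best known of them, and NLP2 is another member of the family.

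Between 14684639 and 21834321 reads were counted in each of the 6 libraries, with 23402 to 23999 gene models detected. NLP2 itself had 9.25, 14.5 and 11.8 CPM (counts per 1000000 counted reads, after scaling of library sizes) in replicates 1, 2 and 3 of starved nlp2, and 8.49, 16.8 and 13.5 CPM after nitrate. All 6 values lay below the wild-type libraries, which ranged from 40.9 to 63.6 CPM over both conditions, and the reads left in the mutant do not show whether a working transcript remained. NLP2 showed no call in the mutant with nitrate (log2 fold change 0.13 ± 0.27, standard error, adjusted p = 0.804). Seedling tissue was as labelled: the 20 green tissue genes summed to 21580 to 31560 CPM and the 7 root genes to 3411 to 4131 CPM in each of the 6 libraries, while the 7 seed storage genes summed to at most 0.4566 CPM. In bulk samples a change in a transcript's level cannot be told apart from a change in the share of cells that carry it. Replicate 1 after nitrate stood apart from replicates 2 and 3. Its log2 levels differed from theirs with a standard deviation across genes of 0.406 and 0.402, against 0.294 between replicates 2 and 3. Such a distance was not particular to this library. For replicate 1 of untreated nlp2 the values were 0.498 and 0.431, against 0.362. For wild type after nitrate they were 0.454 and 0.370, against 0.276, and for starved nlp2 0.354 and 0.341, against 0.322. Results are given with and without nitrate replicate 1 where it matters.

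Of 21347 genes tested, 1998 (9.36%) were higher and 1971 (9.23%) lower after nitrate at an adjusted p below 0.05, 18.6% in either direction. The counts of list members given below are to be read beside these shares. Increases reached further than decreases: 722 genes rose and 290 fell by at least 2-fold, and 75 rose and 1 fell by at least 8-fold. The median log2 fold change was 0.75 among genes called higher, -0.58 among genes called lower and -0.008 over all genes tested. Within the 3 planting dates, the ratio of the nitrate library to its starved partner was above 1 on every date for 1980 of the 1998 and below 1 for 1957 of the 1971. These genes were called from the same libraries, so the counts follow largely from the calls and are no further test. Without nitrate replicate 1, 1880 genes (8.73% of 21540 tested) were higher and 1566 (7.27%) lower; 1727 and 1458 of these were called with all libraries too. With the replicate number as a block the counts were 2514 (11.8%) and 2695 (12.6%). Relative to untreated nlp2 seedlings, labelled 10 days old, the mean after nitrate exceeded the untreated mean for 1821 of the 1998 genes that rose. The starved mean exceeded it for 925 of them. For the 1971 genes that fell these numbers were 386 and 1250. Since the genes were chosen for their difference between nitrate and starvation, which number is larger is set by that choice. The 3 nitrate libraries did not overlap the 3 starved ones for 7465 genes (35.0%), called or not.

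Genes of nitrate reduction rose steeply and evenly across the libraries. NIR1, the plastid nitrite reductase gene, stood at 50.1, 52.5 and 53.8 CPM in the starved libraries and at 3050, 3030 and 3060 CPM after nitrate. The 3 nitrate libraries lay within a narrow band, far above both the starved libraries and the untreated ones (195 ± 18.0 CPM, SD, n = 3), and the change was 58.5-fold (log2 5.87 ± 0.13, adjusted p = 2.65e-16). NIA1, which encodes a nitrate reductase, went from 124, 127 and 127 to 1630, 1900 and 1840 CPM, with no overlap (14.2-fold, adjusted p = 8.09e-15). Its starved level was near the untreated 139 ± 3.77 CPM. NIA2, the other nitrate reductase gene, went from 771, 652 and 797 to 3290, 3360 and 3720 CPM (4.67-fold, adjusted p = 1.75e-09). UPM1 makes a methylated precursor of siroheme, the cofactor of nitrite reductase, and rose 18.3-fold from 53.3, 48.1 and 54.1 to 999, 910 and 942 CPM (adjusted p = 1.6e-15).

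The molybdenum cofactor that nitrate reductase needs is made by the CNX proteins, and these genes did not all move. CNX1 (log2 0.79 ± 0.09), CNX2 (0.80 ± 0.14) and CNX6 (0.98 ± 0.10) rose. CNX3 (-0.05, adjusted p = 0.784), CNX5 (0.12, adjusted p = 0.392) and CNX7 (-0.12, adjusted p = 0.62) were not called, nor was HEMA1, a gene of tetrapyrrole synthesis (-0.04, adjusted p = 0.849). MOT1, a molybdate transporter gene, fell from 12.0, 7.31 and 10.3 to 4.03, 4.01 and 3.48 CPM (log2 -1.36 ± 0.20, adjusted p = 7.25e-05). In all, 7 of the 12 genes of nitrate reduction and its cofactors were higher and 1 lower, and the same counts were found without nitrate replicate 1 and in wild type.

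The sequences just upstream of 3 of the most changed genes are shown because these genes, 2 of nitrate reduction and 1 repressor, rose together. Each run is the 250 bases before the annotated gene start in TAIR10.1, written 5′ to 3′ on the gene's strand, with GAATC or its complement GATTC in capitals. GAATC is a word bound by the HRS1 and HHO repressors described further on. NIR1 lies on the forward strand (chr2:6810145-6810394), NIA1 on the reverse strand (chr1:29239485-29239734) and HRS1 on the forward strand (chr1:4556628-4556877).
NIR1: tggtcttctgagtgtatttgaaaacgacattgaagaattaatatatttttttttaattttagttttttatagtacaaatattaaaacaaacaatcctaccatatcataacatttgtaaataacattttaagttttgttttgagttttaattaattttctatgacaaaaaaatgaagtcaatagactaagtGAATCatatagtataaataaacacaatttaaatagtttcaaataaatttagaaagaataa
NIA1: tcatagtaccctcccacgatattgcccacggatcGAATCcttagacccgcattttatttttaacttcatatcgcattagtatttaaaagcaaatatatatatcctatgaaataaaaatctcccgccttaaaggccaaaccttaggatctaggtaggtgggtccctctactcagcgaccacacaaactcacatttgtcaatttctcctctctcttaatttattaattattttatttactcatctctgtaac
HRS1: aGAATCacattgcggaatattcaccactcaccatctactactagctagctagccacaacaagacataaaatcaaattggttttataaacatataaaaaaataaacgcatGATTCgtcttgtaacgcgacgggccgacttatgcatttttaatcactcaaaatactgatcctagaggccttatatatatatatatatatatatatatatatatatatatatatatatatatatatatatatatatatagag
The word, searched on both strands, was found in 11 of the 15 promoters of the most increased named genes and in 4 of the 15 most decreased. Of all 20588 promoters of tested protein-coding genes 38.9% held it, as did 36 of the 73 (49.3%) of genes that rose at least 8-fold, 35.6% of those that rose at least 2-fold and 38.4% of those that fell at least 2-fold. A match is a matter of letters only, and windows of another length were not searched.

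**Figure D1:**
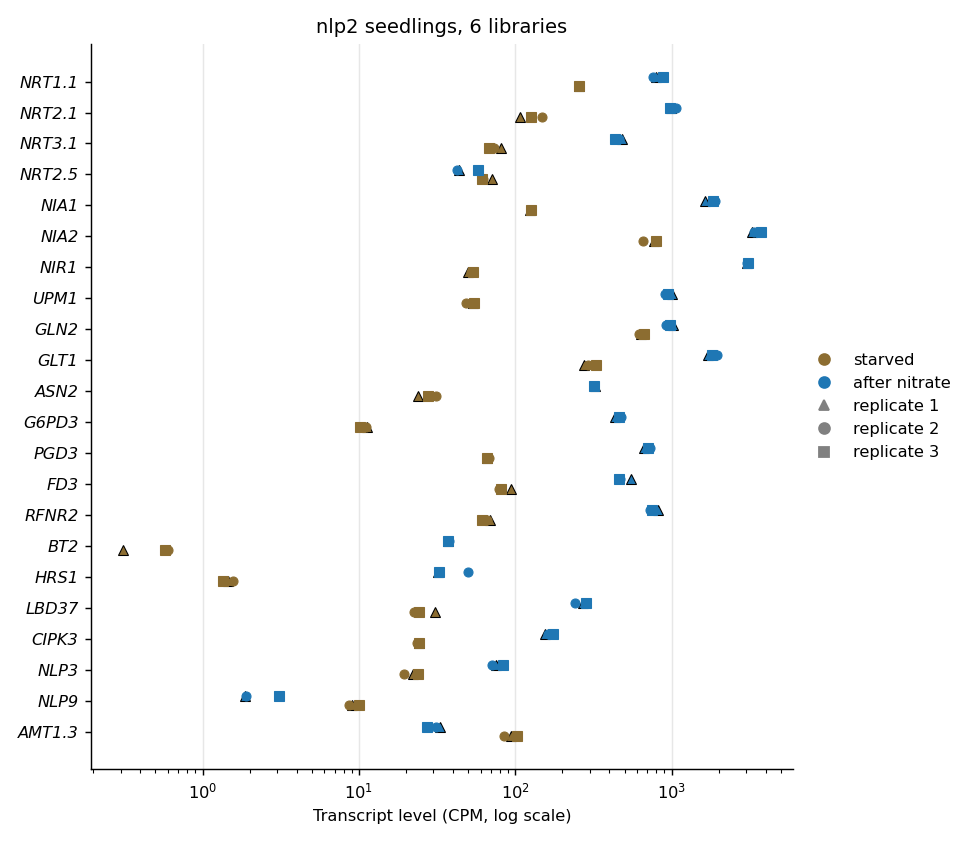
Transcript level in each of the 6 nlp2 libraries for 22 genes of nitrate transport, assimilation, reducing power and regulation (CPM, log axis). Brown points are starved and blue points nitrate libraries, and shapes give the replicate; for NIR1 the nitrate points lie at 3030 to 3060 CPM against 50.1 to 53.8 CPM in starved seedlings.

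Among 24 tested genes of nitrate transport, 12 were higher and 6 lower. The genes that rose include those of root uptake and of storage in the vacuole. NRT1.1, which encodes the dual-affinity transporter and sensor, had 257, 254 and 254 CPM in starved seedlings and 790, 757 and 880 CPM after nitrate (3.17-fold, adjusted p = 2.12e-09). NRT2.1, the main high-affinity transporter gene, went from 108, 148 and 126 to 989, 1060 and 970 CPM (7.90-fold, adjusted p = 7.3e-07), and its partner gene NRT3.1 from 80.9, 73.3 and 68.1 to 482, 461 and 436 CPM (6.20-fold, adjusted p = 1.27e-11). NRT2.2 rose from 1.03, 1.16 and 0.900 to 33.6, 29.8 and 29.3 CPM, but its near-identical neighbour NRT2.1 makes both counts uncertain. CLC-A and CLC-B, vacuolar anion exchanger genes, rose 1.7-fold and 2.45-fold, and SLAH3, an anion channel gene, rose by 1.22 ± 0.14 on the log2 scale.

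High-affinity genes typical of starved plants did not behave alike. NRT2.4 had 12.6 ± 1.01 CPM in starved seedlings and rose to 75.1, 57.4 and 70.6 CPM, where the untreated level was 1.55 ± 0.291 CPM. NRT2.5 was at 71.0, 62.1 and 61.1 CPM in starved seedlings and at 43.4, 42.2 and 58.0 CPM after nitrate; the groups did not overlap, and the difference missed the threshold (log2 -0.44 ± 0.15, adjusted p = 0.051). With the replicate block NRT2.5 was called lower (-0.45, adjusted p = 0.00965), and without nitrate replicate 1 it was not (adjusted p = 0.17). Transporters that move nitrate within the plant went both ways. NRT1.7, which loads the phloem, and NRT1.8, which retrieves nitrate from the xylem, rose by 0.95 ± 0.19 and 0.89 ± 0.18. NRT1.5, which loads the xylem, fell by 0.53 on the log2 scale from 224, 162 and 231 to 158, 130 and 140 CPM (adjusted p = 0.00407). NPF3.1 (-1.11 ± 0.12), NAXT1, a nitrate efflux gene (-0.79 ± 0.12), NRT1.4 (-0.64 ± 0.14), NRT1.9 (-0.53 ± 0.08) and NRT1.11 (-0.52 ± 0.16) also fell. The call for NRT1.11 was lost without nitrate replicate 1 (-0.43, adjusted p = 0.136), and NRT1.2 (0.00, adjusted p = 1.0) and NRT2.7 (0.08, adjusted p = 0.85) were not called. NRT2.3 and NRT2.6 rose by 3.00 ± 0.55 and 4.40 ± 0.63, but from under 0.3 CPM.

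In ammonium assimilation, 5 of 15 genes rose and 3 fell, beside 9.36% and 9.23% of all genes tested. GLT1, the NADH-dependent glutamate synthase gene, went from 274, 292 and 328 to 1720, 1960 and 1820 CPM (6.15-fold, adjusted p = 1.47e-09), whereas the ferredoxin-dependent GLU1 was not called (0.04, adjusted p = 0.87). ASN2, an asparagine synthetase gene, went from 23.9, 31.3 and 27.6 to 324, 317 and 319 CPM (11.6-fold, adjusted p = 1.56e-13), and its untreated level was 63.7 ± 2.98 CPM. ASN1, a related gene known to be repressed by sugar and light, rose from 3.2, 1.76 and 4.76 to 7.25, 16.9 and 13.5 CPM (adjusted p = 0.0109). Plastid glutamine synthetase GLN2 rose 1.51-fold, from 634, 616 and 670 to 1020, 915 and 971 CPM. The cytosolic forms GLN1.1 (-0.37, adjusted p = 0.0408) and GLN1.4 (-0.54, adjusted p = 0.0245) fell, and both missed the threshold without nitrate replicate 1 (adjusted p = 0.117 and 0.0506). Of the glutamate dehydrogenase genes GDH2 rose (0.86 ± 0.14), GDH3 fell (-0.91 ± 0.25) and GDH1 was not called (-0.05, adjusted p = 0.817).

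Nitrite reduction in non-green plastids draws on electrons from the oxidative pentose phosphate pathway, passed through a root-type ferredoxin reductase to ferredoxin. Of 26 tested genes of reducing power, 11 rose and 1 fell, and the rising genes split the isoforms of each enzyme. G6PD3, a plastid glucose-6-phosphate dehydrogenase gene, had 11.3, 11.1 and 10.2 CPM in starved seedlings and 432, 478 and 458 CPM after nitrate (42.0-fold, adjusted p = 6.76e-17). G6PD2 rose too (3.05 ± 0.11), G6PD1 fell (-0.36 ± 0.09, adjusted p = 0.00541), and G6PD4, G6PD5 and G6PD6 were not called (-0.02, -0.06 and 0.03). PGD3, a 6-phosphogluconate dehydrogenase gene, went from 65.5, 68.3 and 65.8 to 669, 732 and 705 CPM (10.6-fold) and PGD1 rose by 2.26 ± 0.07, while PGD2 was at 0.11 (adjusted p = 0.413). RFNR1 and RFNR2, the root-type ferredoxin-NADP reductase genes, rose by 3.32 ± 0.10 and 3.55 ± 0.13, whereas the leaf-type LFNR1 (-0.17, adjusted p = 0.442) and LFNR2 (0.10, adjusted p = 0.738) were not called. The same contrast held for ferredoxin. FD3, the root-type form, went from 93.6, 79.2 and 81.2 to 553, 466 and 463 CPM (5.83-fold), and the leaf-type FD1 and FD2 were not called (-0.30, adjusted p = 0.578, and -0.25, adjusted p = 0.162). PGI1, TKL1 and TRA2, which recycle sugar phosphates, rose by 1.06 ± 0.07, 1.44 ± 0.08 and 1.85 ± 0.08, and the plastid glucose-6-phosphate importer gene GPT1 by 0.37 ± 0.08.

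Organic acids supply carbon skeletons and balance charge when nitrate is reduced, and 9 of the 17 tested genes of this group rose while 0 fell. Over all genes tested 9.36% rose and 9.23% fell. PPC2 and PPC3, which encode phosphoenolpyruvate carboxylases, rose by 1.52 ± 0.13 and 1.37 ± 0.16, and PPCK1, the kinase that activates that enzyme, went from 37.0, 38.3 and 38.4 to 122, 114 and 125 CPM (1.67 ± 0.09). TDT, the vacuolar malate carrier gene, rose by 1.95 ± 0.15, DIT1, a plastid 2-oxoglutarate/malate exchanger gene, by 1.52 ± 0.10 and the cytosolic fumarase gene FUM2 by 1.42 ± 0.20. Trehalose phosphate synthase genes of the sugar-signalling class went both ways. TPS9 (1.6 ± 0.12), TPS10 (0.51 ± 0.12) and TPS7 (0.48 ± 0.09) rose and TPS5 fell (-0.72 ± 0.08).

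Regulators of the nitrate response rose in 19 of 26 cases and fell in 2, and the HRS1/HHO, LBD, BT and TGA families carried most of the increases. BT2, a BTB and TAZ domain protein gene, had 0.310, 0.602 and 0.579 CPM in starved seedlings and 36.9, 37.6 and 37.1 CPM after nitrate (74.1-fold, adjusted p = 1.56e-13), above its untreated 24.1 ± 4.08 CPM. HRS1, a GARP family repressor gene, went from 1.45, 1.57 and 1.35 to 32.0, 50.0 and 32.4 CPM (26.0-fold, adjusted p = 8.92e-12), with an untreated level of 31.3 ± 3.86 CPM. Its homolog HHO1 had 0 reads in the starved libraries together and 156 after nitrate, which is at least 51.7-fold higher than a floor of 3 reads over the group. HHO2 (2.41 ± 0.10) and HHO3 (2.83 ± 0.11) rose as well and HHO5 rose by 0.40 ± 0.12, while HHO4 (0.25, adjusted p = 0.319) and HHO6 (-0.18, adjusted p = 0.566) were not called. The LOB domain repressor genes LBD37 (3.36 ± 0.14), LBD38 (2.76 ± 0.12) and LBD39 (3.2 ± 0.16) rose together. LBD39 ended at 61.9 ± 7.82 CPM, next to its untreated 61.8 ± 6.89 CPM, whereas LBD37 ended at 265 ± 23.0 CPM, above its untreated 71.3 ± 11.9 CPM.

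The other members of the BT family differed in direction: BT1, BT4 and BT5 rose by 3.69 ± 0.27, 0.84 ± 0.15 and 1.49 ± 0.19, and BT3 fell by 0.99 on the log2 scale (adjusted p = 0.00132). TGA1 and TGA4, bZIP factors that act on NRT2.1 and NRT2.2, rose by 1.51 ± 0.11 and 1.41 ± 0.10, and CDF1, a Dof factor gene, from 8.73, 6.85 and 9.84 to 58.1, 22.9 and 30.1 CPM, highest in nitrate replicate 1. NRG2 (0.44 ± 0.12), NAC080 (1.02 ± 0.14) and the auxin receptor gene AFB3 (0.48 ± 0.07) rose. TCP20 (0.12, adjusted p = 0.515), ANR1 (-0.53, adjusted p = 0.159, and 0.0309 with the replicate block) and CRF4 (0.45, adjusted p = 0.133) were not called. BZIP3 rose (0.66) and SPL9 fell (-0.81) only with all libraries in the fit, and without nitrate replicate 1 neither was called (adjusted p = 0.0957 and 0.0673).

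The NLP genes themselves moved in opposite directions, with 3 of 9 higher and 4 lower, beside 9.36% and 9.23% of all genes. NLP7 went from 69.4, 68.0 and 73.1 to 97.1, 106 and 112 CPM (0.58 ± 0.09, adjusted p = 0.000163) and NLP1 rose by 0.68 ± 0.10. NLP3 went from 22.2, 19.3 and 24.0 to 74.9, 71.2 and 83.6 CPM (3.52-fold) and so moved further from its untreated level of 1.63 ± 0.379 CPM. NLP9 went from 9.04, 8.70 and 9.96 to 1.86, 1.89 and 3.08 CPM (4.06-fold lower, adjusted p = 9.59e-06), near its untreated 2.78 ± 0.393 CPM. NLP8 (-1.15 ± 0.16), NLP5 (-0.99 ± 0.09) and NLP4 (-0.69 ± 0.20) fell, and NLP6 was not called (0.07, adjusted p = 0.721). NLP4 was at 59.9 CPM in nitrate replicate 1 and at 35.1 and 37.2 CPM in replicates 2 and 3.

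Calcium signalling links nitrate to NLP7 through CPK10, CPK30 and CPK32, and CBL proteins act with CIPK kinases on transport. Here 6 of 8 such genes rose, beside 9.36% of all genes tested. CIPK3 went from 24.4, 23.7 and 24.2 to 154, 163 and 174 CPM (6.79-fold, adjusted p = 5.61e-13), CIPK8 rose by 0.45 ± 0.08 and CIPK23, which phosphorylates NRT1.1, by 0.63 ± 0.07. CBL1, CBL9 and CPK10 rose by 0.67 ± 0.18, 0.66 ± 0.12 and 0.66 ± 0.10, and CPK30 (-0.03, adjusted p = 0.869) and CPK32 (0.05, adjusted p = 0.816) were not called. All 5 glutaredoxin genes of a cluster on chromosome 4, which cytokinin and nitrate are known to induce, rose. GRXS3 went from 1.5, 1.34 and 1.09 to 10.0, 7.41 and 9.42 CPM, and GRXS4, GRXS5, GRXS7 and GRXS8 went from at most 0.386 CPM to between 1.77 and 3.45 CPM. These copies are alike in sequence, so their counts are uncertain.

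Ammonium transporter genes fell, in a list where 9 of 23 tested transporters of ammonium, urea and amino acids were lower and 2 higher. Over all genes tested 9.23% were lower and 9.36% higher. AMT1.3 went from 94.1, 85.2 and 102 to 33.1, 31.3 and 27.2 CPM (3.07-fold lower, adjusted p = 1.06e-07), below its untreated 49.2 ± 4.94 CPM. AMT1.1 (-1.03 ± 0.11) and AMT1.2 (-1.28 ± 0.09) fell with it. UMAMIT11 (-0.69 ± 0.13), of a family that exports amino acids, fell too, while its relative UMAMIT36 rose from 6.41, 7.17 and 6.81 to 29.7, 25.4 and 34.6 CPM (2.13 ± 0.22) and the amino acid permease gene AAP6 by 0.51 ± 0.09.

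**Figure D2:**
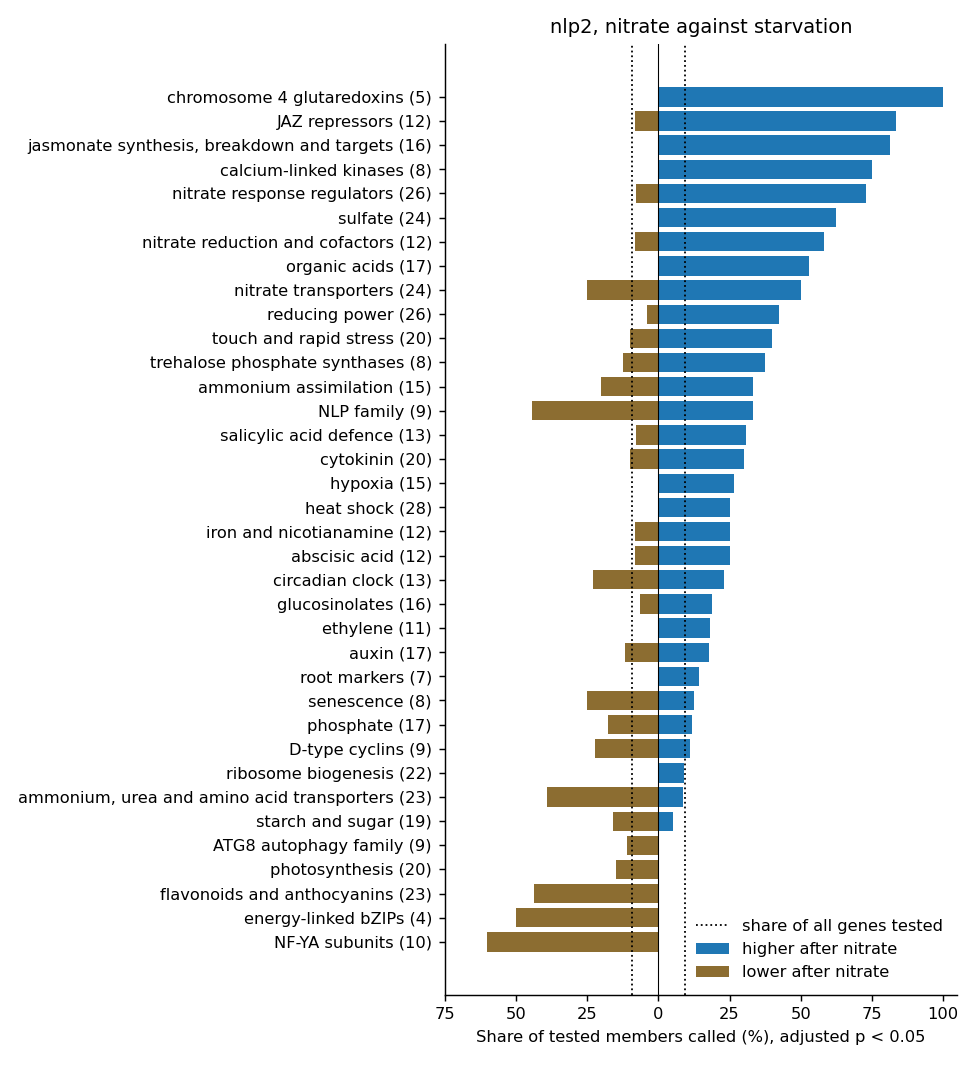
Share of the tested members of each gene list called higher (blue, to the right) or lower (brown, to the left) after nitrate in nlp2, in percent, with the number tested in parentheses. Dotted lines mark the shares among all genes tested, 9.36% and 9.23%; for the regulators 19 of 26 were higher and for the NF-YA subunits 6 of 10 lower.

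Sulfate genes rose in 15 of 24 cases and fell in 0, with a median log2 fold change of 0.93. APR1 and APR2 encode the enzymes that reduce activated sulfate. APR2 went from 152, 180 and 166 to 787, 555 and 809 CPM (2.11 ± 0.19, adjusted p = 2.14e-07), and APR1 rose by 1.4 ± 0.13. The root uptake gene SULTR1;2 went from 17.2, 26.0 and 22.4 to 72.2, 99.3 and 92.8 CPM (4.03-fold), the sulfite reductase gene SIR rose by 1.02 ± 0.09, the ATP sulfurylase gene APS3 by 1.4 ± 0.14 and the sulfur-starvation marker SDI2 by 1.89 ± 0.16. Without nitrate replicate 1 the list counts were 16 and 0.

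Cytokinin carries a signal of nitrogen supply from root to shoot. Of 20 tested genes of its synthesis, transport and response 6 rose and 2 fell, beside 9.36% and 9.23% of all genes. IPT3, a synthesis gene known to answer to nitrate, went from 5.89, 9.81 and 7.97 to 31, 35.7 and 28.3 CPM (2.00 ± 0.19, adjusted p = 4.49e-07). CYP735A1 (1.53 ± 0.35) and CYP735A2 (1.68 ± 0.23), which make trans-zeatin, and the response regulators ARR3 (1.7 ± 0.12) and ARR8 (0.98 ± 0.10) rose, and ARR4 fell (-0.54 ± 0.12). Of 17 auxin genes 3 were higher and 2 lower, where 18.6% of all genes tested were called in either direction. TAR2, a synthesis gene with a known role in roots at low nitrogen, rose by 1.61 ± 0.12 and IAA2 by 0.94 ± 0.14. GH3.1 rose by 0.75 ± 0.24 (not called without nitrate replicate 1, adjusted p = 0.102), and the transport genes PIN7 (-0.55 ± 0.10) and LAX3 (-0.47 ± 0.10) fell. Of 12 abscisic acid genes 3 rose and 1 fell, beside the same 18.6% over all genes. CYP707A2 (1.23 ± 0.11) and CYP707A3 (2.02 ± 0.14), which break the hormone down, rose, as did RD29A, an abscisic acid and drought marker, from 28.3, 27.6 and 31.8 to 134, 127 and 131 CPM. ABI2, a phosphatase of its signalling, fell (-0.62 ± 0.14).

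Most genes of the jasmonate pathway rose. Of 12 JAZ repressor genes 10 rose and 1 fell, and of 16 genes of jasmonate synthesis, breakdown and targets 13 rose and 0 fell. JAZ10 went from 3.41, 2.68 and 1.74 to 23.3, 29.4 and 30.0 CPM (3.38 ± 0.31, adjusted p = 5.94e-07), and JAZ5 (2.46 ± 0.29), JAZ7 (3.00 ± 0.35) and JAZ8 (3.04 ± 0.43) rose by similar amounts. The synthesis genes AOC3, OPR3 and LOX4 rose by 2.37 ± 0.15, 1.79 ± 0.14 and 2.57 ± 0.28. CYP94C1, which oxidises active jasmonate, went from 5.99, 4.40 and 5.59 to 40.2, 57.3 and 83.4 CPM (3.51 ± 0.32), and CYP94B3, of the same pathway, rose by 2.71 ± 0.19. Nitrate replicate 1 was the highest of the 3 nitrate libraries for 1 of the 16 and 1 of the 12 genes, with median ratios to the mean of the other two of 0.737 and 0.742; without it the counts called higher were again 13 and 10, and JAZ11, the JAZ gene that fell (-0.35, adjusted p = 0.0364), was not called (adjusted p = 0.116). Touch and wounding are known to induce these genes. Among 20 tested touch and rapid stress genes 8 rose and 2 fell, beside 18.6% of all genes called in either direction. Among them was TCH3, a calmodulin-like gene, at 98.1, 95.4 and 72.9 CPM in starved seedlings and 319, 425 and 512 CPM after nitrate (2.24 ± 0.17). WRKY18 (2.42 ± 0.24), WRKY40 (2.22 ± 0.30) and TCH4 (1.47 ± 0.19) rose and ERF5 fell (-1.41 ± 0.15).

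Heat-shock genes set nitrate replicate 1 apart. The 29 listed genes summed to 22930 CPM in it, to 2279 and 3860 CPM in nitrate replicates 2 and 3, and to 3089, 1236 and 2821 CPM in starved replicates 1, 2 and 3. Of the 28 tested genes 27 were highest in replicate 1 among the 3 nitrate libraries, and 26 (92.9%) were at least 2-fold above both others, compared with 137 (0.642%) of all genes tested. The chaperone gene HSP101 had 74.5, 49.9 and 78.6 CPM in starved seedlings and 1640, 106 and 216 CPM after nitrate, and the small heat-shock gene HSP17.6A had 48.6, 25.1 and 39.2 CPM against 618, 30.4 and 56.7 CPM. These values show replicate 1 many times above its group, while replicates 2 and 3 lay close to or modestly above the starved libraries. The 10 named genes that stood highest in replicate 1 relative to the other nitrate libraries all belong to this list: HSP17.6A, HSP17.4, HSP23.6, HSFA2, ROF2, HSP17.6II, HSP15.7, HSP101, BAG6 and HSP90.1.

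With all libraries 7 heat-shock genes were called higher and the list's median log2 fold change was 1.74. Without nitrate replicate 1 the numbers were 0 and 0.23. The fit without it rests on nitrate replicates 2 and 3. That fit keeps replicate 1 of wild type after nitrate, with 30310 CPM for this list, in the shared spread. A gene not called there is therefore not shown to be unchanged. HSFA2, the heat-inducible transcription factor gene, went from 15, 9.21 and 15.9 to 525, 23.4 and 57.5 CPM (3.92 ± 1.23, adjusted p = 0.0435) and was not called without replicate 1 (1.6, adjusted p = 0.35). The same was true of HSFA7B, HSFB2A, HSFB2B, MBF1C, DREB2A and BAG6, whose adjusted p-values without it ran from 0.0657 for DREB2A to 0.246 for BAG6. With the replicate block HSFA2 (adjusted p = 0.0687) and BAG6 (adjusted p = 0.0646) were not called either. In replicates 2 and 3 together HSFA7B, HSFA2, BAG6 and DREB2A were at 5.64, 3.03, 2.99 and 2.94 times their starved means, and HSP17.4, HSP18.2 and HSP21 were at 0.832, 0.678 and 0.504 times theirs. In wild type too, replicate 1 after nitrate had the highest sum of this list, at 30310 CPM against 2387 and 7669 CPM in replicates 2 and 3. A planting date is given for replicate 1 of the mutant and for none of wild-type replicates 1 and 2 after nitrate, so whether they shared one was not tested. None of the genes of nitrate transport, nitrate reduction, ammonium assimilation, regulation, calcium-linked kinases and reducing power stood 2-fold above or below both other nitrate libraries in replicate 1.

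**Figure D3:**
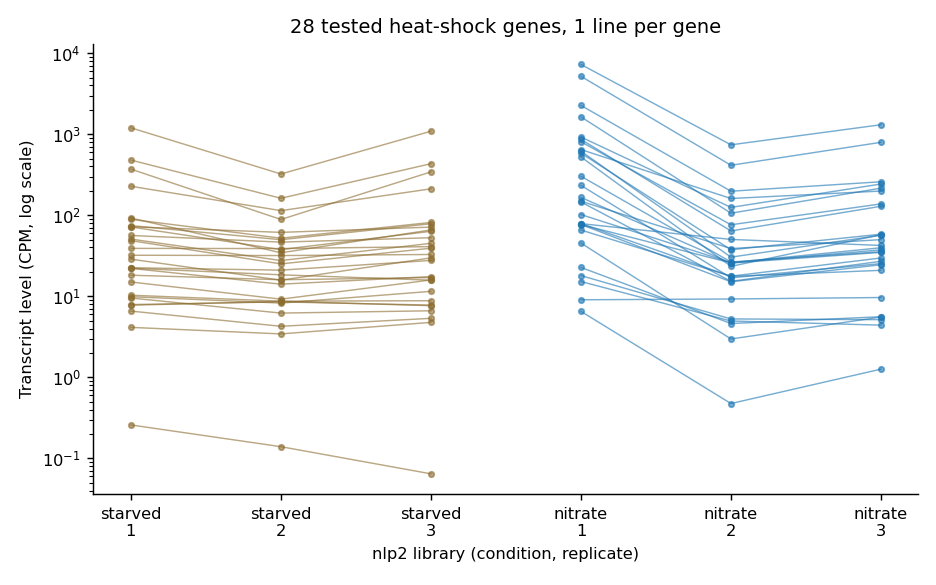
Level of each of 28 tested heat-shock genes in the 6 nlp2 libraries (CPM, log axis), with a line for each gene joining the libraries of a condition. In nitrate replicate 1 the lines start high, with 26 genes at least 2-fold above both other nitrate libraries.

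**Figure D4:**
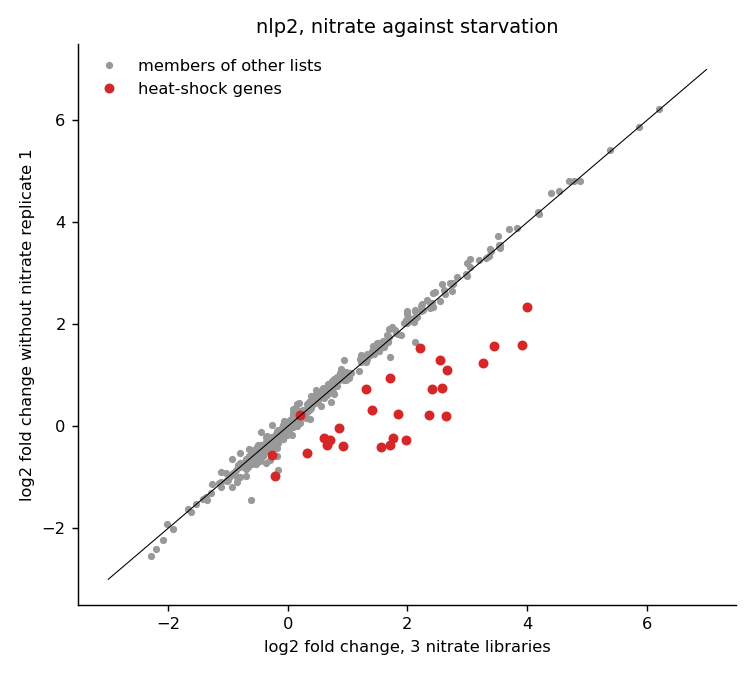
Log2 fold change of list members after nitrate with all 3 nitrate libraries (x axis) and without nitrate replicate 1 (y axis); genes without a read in a group are left out. Of the 28 heat-shock genes (red) all but HSFA3 lie below the diagonal, with list medians of 1.74 and 0.23; members of the other lists are grey.

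Other genes were low in replicate 1. Over all genes tested 38 (0.178%) were at least 2-fold below both other nitrate libraries in it. Only genes with a symbol and at least 5 CPM in both other nitrate libraries were ranked by name. The 10 furthest below were FRK1, MAPKKK19, PP2-A5, RLP23, CYP81F2, RK3, GRP3S, CBP60G, GSTF2 and RLK1. Among them were FRK1, a receptor kinase gene used as an immune marker, at 2.6 CPM against 9.78 and 10.7 CPM, and RLP23, an immune receptor gene, at 5.70 against 16.0 and 16.2 CPM. CBP60G, a regulator of salicylic acid synthesis, was at 4.58 against 10.3 and 11.1 CPM and was lower after nitrate in both fits (-0.94, adjusted p = 0.0122, and -0.65, adjusted p = 0.0379). FRK1 was called higher after nitrate only without replicate 1 (1.29, adjusted p = 0.00545, against 0.89, adjusted p = 0.147). Of 13 tested salicylic acid defence genes 4 rose and 1 fell, beside 18.6% of all genes called in either direction. EDS5, the salicylic acid exporter gene, rose by 1.32 ± 0.16, and the immune regulators PAD4, SAG101 and EDS1 by 0.98 ± 0.11, 0.59 ± 0.11 and 0.45 ± 0.09.

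Genes of pigment synthesis, which starvation is known to induce, fell. In flavonoid and anthocyanin synthesis 10 of 23 tested genes were lower and 0 higher, beside 9.23% and 9.36% of all genes. MYB90, a regulator of anthocyanin synthesis, went from 42.1, 32.0 and 28.9 to 9.42, 4.87 and 7.02 CPM (4.90-fold lower, adjusted p = 0.00163), with 0.630 ± 0.345 CPM in untreated seedlings. MYB75 (-1.92 ± 0.45), the flavonol regulator MYB12 (-1.0 ± 0.20), the flavanone hydroxylase gene F3H (-0.61 ± 0.11) and the glucosyltransferase genes UGT78D2 (-0.69 ± 0.08) and UGT75C1 (-1.01 ± 0.24) fell with it. Of 10 NF-YA genes, subunits of the CCAAT-binding NF-Y factor that are known to accumulate when nitrogen is short, 6 fell and 0 rose, by -0.87 ± 0.11 for NF-YA7 to -0.34 ± 0.08 for NF-YA1. Without nitrate replicate 1 these counts were 8 and 5.

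Of 8 tested senescence genes 1 rose and 2 fell, where 18.6% of all genes tested were called in either direction. NAP, a NAC factor that promotes leaf senescence, went from 71.5, 35.9 and 51.2 to 14.9, 6.98 and 16.0 CPM (-2.08 ± 0.39), and the chlorophyll breakdown gene SGR1 fell by 1.02 on the log2 scale. SAG21, a gene of the LEA family listed with them, rose from 69.4, 46.1 and 45.5 to 611, 597 and 672 CPM (3.55 ± 0.23). Of the ATG8 autophagy genes 1 of 9 was lower (ATG8F, -0.78 ± 0.15), near the 9.23% of all genes tested. With the replicate block 5 of 9 were lower, beside 12.6% of all genes. Of 13 clock genes 3 rose, 3 fell and 7 were not called, beside 9.36% higher and 9.23% lower over all genes. CCA1 (-0.86 ± 0.15), LHY (-0.64 ± 0.17) and RVE8 (-0.57 ± 0.14) fell, and TOC1 (0.79 ± 0.12), LUX (1.31 ± 0.14) and BOA (0.95 ± 0.21) rose. No hours of sampling are stated in the labels. In the hypoxia list 4 of 15 rose, beside 9.36% of all genes tested. Among them were the haemoglobin genes HB1 (2.37 ± 0.24) and HB2 (1.19 ± 0.17), HRE1 (1.54 ± 0.26) and SRO5 (2.02 ± 0.19).

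Calls in the remaining lists, beside 18.6% over all genes, were as follows: photosynthesis (0 of 20 higher, 3 lower), starch and sugar (1 of 19 higher, 3 lower), phosphate (2 of 17 and 3), iron (3 of 12 and 1), ethylene (2 of 11 and 0), D-type cyclins (1 of 9 and 2), glucosinolates (3 of 16 and 1), energy-linked bZIPs (0 of 4 and 2) and ribosome biogenesis (2 of 22 and 0). LHCB2.1, a light-harvesting protein gene, had 775, 599 and 820 CPM in starved seedlings and 328, 308 and 375 CPM after nitrate, and PRK (-0.52 ± 0.10) and GAPA (-0.43 ± 0.11) of the Calvin cycle fell. With the replicate block 7 photosynthesis genes were lower and 7 ribosome biogenesis genes higher. FER3, a ferritin gene, rose by 1.32 ± 0.18 and NAS1, a nicotianamine synthase gene, by 0.63 ± 0.11, while FIT, the regulator of iron uptake, fell by 0.71 on the log2 scale. In glucosinolate synthesis the indolic genes CYP79B3 (0.78 ± 0.20), CYP83B1 (0.89 ± 0.20) and MYB51 (0.51 ± 0.15) rose, and the aliphatic gene CYP83A1 fell (-0.39 ± 0.11).

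The 15 largest increases were taken among called genes with a symbol, at 5 CPM or more and with no overlap between starved and nitrate libraries. The limit of 5 CPM leaves out HHO1 and NRT2.6. Of these 15 genes, 4 stood in none of the lists. HSFA2 is among the 15 with nitrate replicate 1 in the fit and was not called without it. RRTF1, an ERF transcription factor of redox and wound responses, went from 0.362, 0.370 and 0.386 to 5.82, 7.36 and 14.5 CPM (4.61 ± 0.54). UMAMIT35, of the amino acid exporter family, went from 0.258, 0.602 and 0.386 to 11, 8.66 and 9.59 CPM, a phosphoglycerate mutase family gene (AT1G78050) from 8.27, 8.47 and 7.39 to 117, 110 and 123 CPM, and RAS1, a gene of salt and abscisic acid responses, from 0.775, 0.370 and 0.514 to 5.51, 5.64 and 10.6 CPM. Of the 75 genes that rose at least 8-fold, 29 were members of a list. Under the same limits, the largest decreases outside the lists included CYP716A2 (-2.11 ± 0.18), the acylhydrolase gene DLAH (-2.05 ± 0.37), BBX16 (-2.0 ± 0.23), the exocyst gene EXO70H2 (-1.99 ± 0.23) and COL2 (-1.98 ± 0.13). The carotenoid cleavage gene NCED4 went from 127, 116 and 122 to 27.4, 32.8 and 34.4 CPM, and UGT72E2, which glucosylates monolignols, from 444, 417 and 464 to 158, 114 and 109 CPM.

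The response of nlp2 was then set beside that of wild type, in which 2387 genes (11.2%) were higher and 2171 (10.2%) lower, 21.4% in either direction. Of the genes called in nlp2, 1778 (89.0% of those in nlp2 and 74.5% of those in wild type) were also higher in wild type and 1601 (81.2% and 73.7%) also lower, and 1 gene was called in opposite directions. Across genes, a comparison in which genes are not independent replicates and the genotypes share no library, Pearson's r between the log2 fold changes was 0.899. The difference itself was tested for every gene, and edgeR called 0 of 21347 (0.0%, smallest adjusted p = 0.0613). DESeq2 called 2 genes. By edgeR 313 genes (1.47%) had an unadjusted p below 0.05. That is a smaller share than the 0.05 to be counted on when no gene differs, so an unadjusted p singles out no gene here. A p that misses the threshold does not show that the genotypes respond alike. For NIR1 the difference was -0.01 ± 0.15 on the log2 scale, for NRT2.1 -0.32 ± 0.36 and for HRS1 0.48 ± 0.30.

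Some induced genes rose less in nlp2 at an unadjusted p only, and each is a description. In the reducing power list 8 of 26 genes (30.8%) had an unadjusted p below 0.05, all 8 with the smaller response in nlp2, among them FD3 (-0.48 ± 0.14), TRA2 (-0.42 ± 0.11), PGD3 (-0.36 ± 0.11), PGD1 (-0.33 ± 0.10) and G6PD3 (-0.33 ± 0.13). The adjusted p was 1.0 for each of these. NRT3.1 (-0.63 ± 0.16), CLC-B (-0.44 ± 0.11), PPC3 (-0.94 ± 0.22) and RD29A (-0.80 ± 0.21) also had smaller responses in nlp2 (unadjusted p = 0.000878, 0.000886, 0.000441 and 0.001). The log2 fold change of PPC3 was 2.31 in wild-type and 1.37 in nlp2 seedlings. Over all genes 232 of the 313 had the smaller value in nlp2, and the median difference of all genes tested was -0.01. In the touch list all 20 differences were below 0 (median -0.36), beside 11384 of all 21347 genes tested. So were all 28 in the heat-shock list (median -0.56), where replicate 1 of each genotype is the highest nitrate library. Members of a list can move together within a library, so their signs are not independent.

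**Figure D5:**
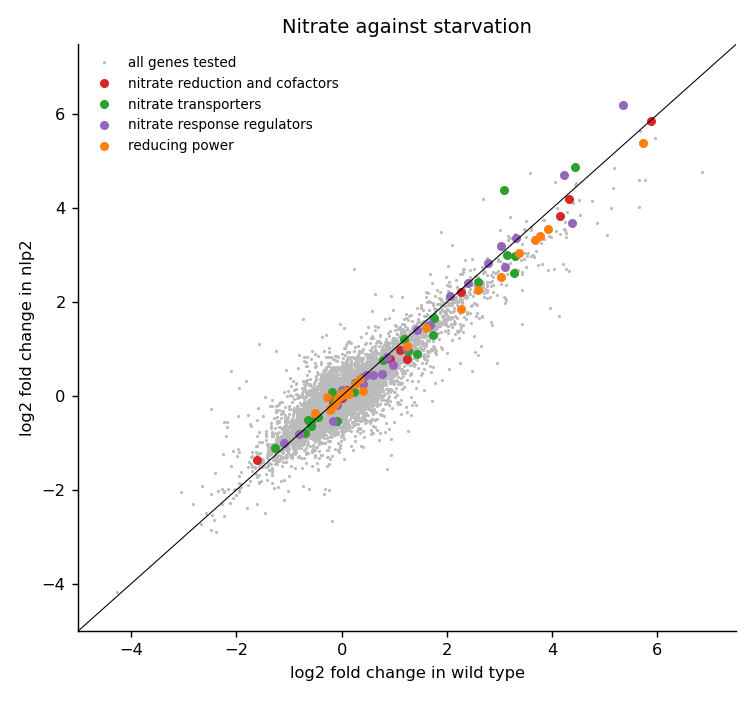
Log2 fold change after nitrate in nlp2 (y axis) against wild type (x axis) for genes with a read in all 4 groups, grey for all genes tested and coloured for 4 lists. Points of the lists lie along the diagonal of equal response; G6PD3 and PGD3 lie slightly below it, with differences of -0.33 and -0.36.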

How the data were processed

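RNA of whole seedlings was sequenced as stranded, single-end poly(A) libraries, per the labels' protocols. The authors deposited read counts per gene model for each library, with reads that matched several places equally well removed, per the file headers. Per the submitters' processing notes, Bowtie2 and TAIR10 were used. Tool versions, the gene annotation and whether counting used strand were not stated there, so overlapping, antisense and near-identical genes are uncertain. The 6 libraries held 14684639 to 21834321 counted reads, with 98.21% to 98.45% of reads mapped.

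Counts of 33602 models in 18 libraries were fitted with edgeR 4.0.16 in R 4.3.3 (6 group means, TMM scaling, robust quasi-likelihood F-test, 12 residual degrees of freedom), after a filter on low counts (filterByExpr, minimum count 10, total 15) that left 21347 genes. P-values were adjusted by the Benjamini-Hochberg method over all genes tested, and an adjusted p below 0.05 was called. Standard errors were derived from the fold change and F. CPM values use the scaled library sizes, and ± after a mean is the SD of 3 libraries. The procedure was tested on simulated counts. DESeq2 1.42.0, another scaling, no filter, leaving out each library, a replicate block and fits of only the 6 nlp2 libraries were tried as alternatives.

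Replicate numbers mark shared planting dates in the nlp2 labels, so they pair these samples; deviations from the group mean of same-numbered starved and nitrate libraries correlated across genes at 0.14, 0.251 and -0.058. The series design calls the replicates biological. Named genes were all NLPs, any member of the 6 lists nearest to nitrate, up to 6 called members with the smallest p of other lists beside examples of no call, the 15 genes with the largest change in each direction at 5 CPM or more, and the 10 most above or below in nitrate replicate 1 (pseudocount 0.5 CPM). Members and lists were chosen with earlier results of these data known. Promoters are 250 bases from RefSeq TAIR10.1. Results for other groups of the series were not used here except as stated.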

Additional observations from a re-analysis of the deposited data

How the results depend on the processing

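In nlp2, 0 genes called with all libraries were called in the opposite direction under any alternative run; fold changes that were not called did turn without nitrate replicate 1 (ROF2 1.76 to -0.23, HSP17.4 1.98 to -0.27, HSP17.6II 1.56 to -0.41 and HSP15.7 1.71 to -0.36). Requiring a log2 fold change of at least 1 left 722 genes higher and 290 lower. Leaving out each library in turn gave 1575 to 1880 genes higher and 1390 to 1678 lower, and 0 to 0 genes with a genotype difference, whereas DESeq2 gave 2 such genes. Other scaling gave 1973 and 1979, no filter 1828 and 1852, and DESeq2 2096 and 2118. With the replicate block, which in nlp2 follows the planting dates, 2514 genes were higher and 2695 lower, 1990 and 1968 of them shared with the fit without it; it gave 0 genes with a genotype difference. Among 573 results for single genes, the block gained 39 calls and lost 2, and leaving out nitrate replicate 1 gained 9 and lost 20, the heat-shock genes among the lost; the cause was not tested. Fitting only the 6 nlp2 libraries gave 2067 genes higher and 1887 lower, of which 1829 and 1685 were also called with all 18. Adding the replicate block to that smaller fit gave 2122 and 1998, with 1768 and 1663 shared. Genes with few reads, such as NRT2.6, HHO1 and the glutaredoxins, have the least certain fold changes.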

Other observations

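Some gene models with a known place in nitrogen or stress responses were listed at 0 in all 18 libraries: BZIP1, BZIP2, BZIP11, BZIP44, BZIP53 and HSFB1. Each of these 6 has a model of exactly the same length, with a locus number within 10 of its own, that was also at 0. Of all models, 457 have such a neighbour of equal length, and 375 of them were at 0 in all libraries, compared with 6509 of all 33602 models. No level of these genes can be given from the deposited counts.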
